A study of Homo sapiens with 12 samples.

Results

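The RNA-seq of this study of oral squamous cell carcinoma (OSCC) cells was examined for the genes whose mRNA moved the same way with rapamycin in both numbered pairs of libraries. The 4 libraries used here, of the 12 in the series, were rapamycin 1 and rapamycin 2, from cells given 100 nM rapamycin, and control 1 and control 2, from cells given none. Pair 1 is rapamycin 1 against control 1 and pair 2 is rapamycin 2 against control 2, as the titles number them. Of 58302 genes counted, 15826 had enough counts to be tested, and 1277 of these were called: their adjusted p was under 0.05 in a fit with the pair as a block, and both pairs differed in the same direction. HSC3 and CAL33, the lines that the labels name, are established human OSCC cell lines. The study also gave rapamycin to HN6, another OSCC line, in other experiments. No genetic change or other agent is named for any of the 4 libraries. The other 8 libraries made 4 lists of m6A peaks, 1 for each line and treatment.

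Rapamycin binds the protein FKBP12, and the complex inhibits mTOR complex 1, the kinase that couples amino acids and growth factors to protein synthesis. When it is inhibited, cells slow the making of ribosomes and lower cap-dependent translation, and autophagy, the digestion of cell contents in lysosomes, is released. The same kinase normally restrains signalling from the insulin receptor through a feedback loop, and it is known to raise the translation or transcription of regulators of glycolysis, nucleotide synthesis and the proteasome.

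The labels of the 4 libraries need care. They place both rapamycin libraries in HSC3 and both control libraries in CAL33, so that under the labels the treatment and the cell line cannot be told apart, whereas the m6A libraries are numbered by line, with 1 for HSC3 and 2 for CAL33 whatever the treatment. Over the tested genes, log2 CPM (CPM, the read count of a gene scaled to the size of its library) correlated at r = 0.97 between rapamycin 1 and control 1 and at r = 0.957 between rapamycin 2 and control 2, and at r = 0.81 to 0.856 between libraries of different numbers. In both treatments, 95 genes were at least 32-fold higher in number 1, and 39 of these carried an m6A peak in HSC3 against 16 in CAL33. Of the 58 genes at least 32-fold higher in number 2, 4 carried a peak in HSC3 and 15 in CAL33. The difference between number 1 and number 2 in log2 CPM correlated at r = 0.885 between rapamycin and control. The libraries thus resembled each other by number and not by treatment. Since the labels say otherwise, the line of each library was not assigned, and the number was used as the block. The libraries held 18492273 to 23763098 counts, fewer in both rapamycin than in both control libraries, and the 10 most abundant genes took 10.2% and 10.3% of the rapamycin counts against 7.23% and 8.23% of the control counts. The mitochondrial share ran from 5.71% to 7.94% and was higher with rapamycin in each pair. The part of depth, of the dominant genes and of the mitochondrial share in the results was not tested. Of 11 squamous or epithelial markers, 9 exceeded 1 CPM in every library. The 8 leukocyte markers summed to between 0.168 and 0.756 CPM, the 8 fibroblast markers to between 8.83 and 48.4 CPM and the 5 endothelial markers to between 1.51 and 44.1 CPM. PTPRC and MS4A1 among the leukocyte markers and COL1A2, COL3A1 and DCN among the fibroblast markers had no read in any library, and the endothelial sum was high in both libraries numbered 2 and low in both numbered 1. The fibroblast sum was higher with rapamycin in each pair (48.4 against 36.0 CPM and 27.7 against 8.83 CPM), and the squamous and epithelial sum was lower in each pair (3747 against 4281 CPM and 5139 against 6478 CPM); the part of either in the results was not tested.

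The pairs shared a direction for most genes that moved far. The difference in log2 CPM (rapamycin minus control) correlated at r = 0.485 between pair 1 and pair 2 over the 15826 genes, a description across genes that are not independent; the pairs have no library in common. Among genes that differed at least 2-fold in both pairs, 771 were higher in both (4.87% of those tested), 290 were lower in both (1.83%), and 94 went opposite ways, so that 91.9% shared their direction. Among genes that differed at least 4-fold in both pairs, 105 of 108 shared it. In the blocked fit 727 genes rose (4.59% of those tested) and 550 fell (3.48%). Those that rose had a median log2 fold change of 1.53, with 212 of them changed at least 4-fold. Those that fell had a median of −1.15, with 44 changed at least 4-fold. Both rapamycin libraries lay above both control libraries for 485 of the genes that rose, an order seen in 15% of all tested genes, and below them for 466 of the genes that fell, an order seen in 16.5%; since the calls use the same libraries, these counts are a description. Just inside the threshold lay SYTL3, HACD2 and AGTPBP1, all at adjusted p = 0.0498, and just outside it TTC39A, UBE2H and MXD4, all at 0.05.

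**Figure D1:**
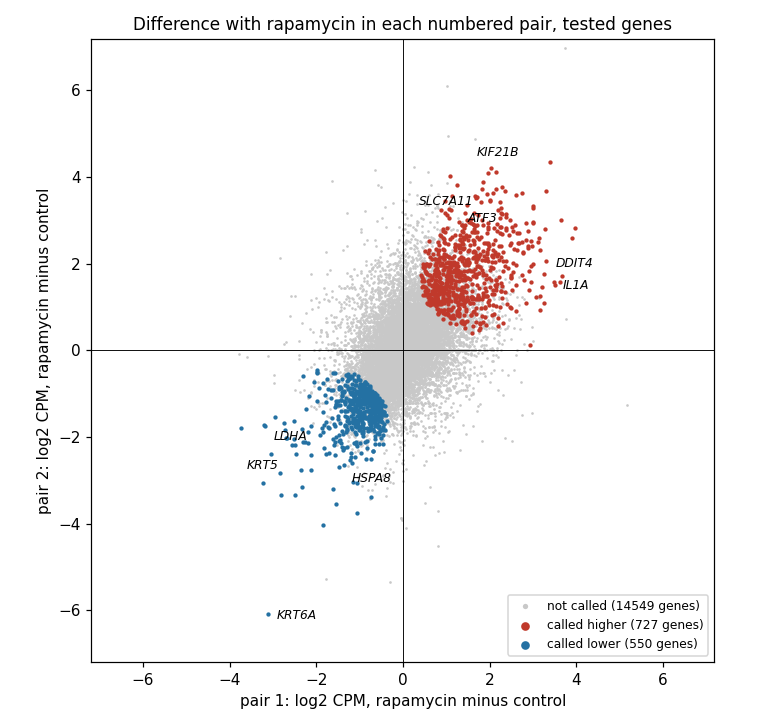
Difference in log2 CPM between the rapamycin and the control library of pair 1 (x axis) and of pair 2 (y axis); each point is a tested gene, red where called higher, blue where called lower and grey otherwise. The 727 red and 550 blue points fill the quadrants in which both pairs share a direction, and KRT6A lies farthest down at −3.11 in pair 1 and −6.09 in pair 2.

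Every call rests on the block. Without it no gene passed the threshold in edgeR's quasi-likelihood test, and 446 genes had an unadjusted p under 0.05, against 3736 with it. DESeq2 with the block called 418 genes higher and 412 lower. The split between directions also depended on scaling, since upper-quartile scaling gave 799 higher and 358 lower. With the block, the spread behind the p-values is how far the pairs differ in their change from control to rapamycin. If the number marks the cell line, a difference in response between the lines is part of that spread. Such a difference cannot be told apart from technical spread, and no source says that the libraries came from separate cultures. With a single residual degree of freedom per gene, the p-values lean on the spread shared over all genes.

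The genes that rose furthest in the weaker of their pairs were led by KIF21B, a neuronal kinesin motor. Its level was 53.6 and 23.4 CPM in rapamycin 1 and 2 against 4.99 and 1.06 CPM in control 1 and 2, a log2 fold change of 3.89 (SE 0.39, adjusted p = 2.18e-06). Both rapamycin libraries lay well above both control libraries. GDF15, a stress-induced secreted factor of the TGF-beta family, was 47.0 and 239 CPM with rapamycin against 8.13 and 33.0 CPM in control cells (log2 fold change 2.70, SE 0.28, adjusted p = 2.18e-06). DDIT4, which encodes the stress-induced mTOR inhibitor REDD1, was 272 and 1465 CPM against 27.3 and 348 CPM; it rose in each pair, by 3.31 and 2.07 on the log2 scale, although rapamycin 1 lay below control 2. SLC7A11, the cystine importer, was 99.6 and 102 CPM against 20.4 and 11.4 CPM (log2 fold change 2.72, SE 0.30). Others of the leading 12 were CCDC18-AS1, ATF3, CBX7 (a Polycomb subunit), NOL4L, WIPI1 (which binds phosphoinositides at forming autophagosomes), DNMT3A (a de novo DNA methyltransferase) and NATD1, with log2 fold changes between 1.95 and 2.98. CCDC18-AS1 is an antisense gene, and since the strand setting of the counting is not given in the sources used here, its reads cannot be told apart from those of the gene opposite.

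The genes that fell furthest began with keratins. KRT6A, a keratin of proliferating and wounded epithelium, was 0.421 and 5.38 CPM with rapamycin against 4.39 and 374 CPM in control cells, with 8 reads in rapamycin 1 (log2 fold change −5.46, SE 0.62, adjusted p = 0.00374). Its near-identical paralogues can share reads, so this value is uncertain. KRT5, the basal-layer keratin, was 6.10 and 327 CPM against 34.2 and 1703 CPM (log2 fold change −2.43, SE 0.27, adjusted p = 6.06e-06). The fall was alike in the pairs, −2.47 and −2.38, while the level was far higher in number 2 in both treatments, so that the groups overlapped. RBM14, an RNA-binding coactivator of paraspeckles, was 41.6 and 34.1 CPM against 182 and 181 CPM (log2 fold change −2.27, SE 0.27, adjusted p = 9.76e-06), and ATF5, a transcription factor of the mitochondrial stress response, was 16.7 and 9.54 CPM against 75.9 and 42.1 CPM (log2 fold change −2.16, SE 0.30). Both had groups that did not overlap. The other genes of the 12 were ADI1 (methionine salvage), PDCL3 (a co-chaperone of the chaperonin CCT), CHORDC1, DNAJA1, CCDC86, LDHA, PIGW (a glycosylphosphatidylinositol anchor enzyme) and UTP20, with log2 fold changes between −2.39 and −1.71.

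Cytosolic chaperones had the largest share of lower calls among the 50 gene lists examined. Of 36 heat shock proteins, co-chaperones and chaperonin subunits tested, 18 fell (50%, against 3.48% of all tested genes) and none rose. The median log2 fold change was −0.84 over the list against 0.05 over all tested genes. HSPA8, the constitutive HSP70, was 1477 and 558 CPM with rapamycin against 4094 and 3595 CPM in control cells (log2 fold change −2.08, SE 0.31, adjusted p = 0.00064). HSP90AA1, the inducible HSP90, was 911 and 566 CPM against 2714 and 1894 CPM (log2 fold change −1.66, SE 0.27, adjusted p = 0.000747). In both genes the higher rapamycin library lay below the lower control library. DNAJA1, an HSP40 that loads clients onto HSP70, was 118 and 98.7 CPM against 419 and 324 CPM (log2 fold change −1.77, SE 0.26), and CHORDC1, an HSP90 co-chaperone, was 35.5 and 22.5 CPM against 118 and 76.9 CPM (log2 fold change −1.75, SE 0.27). HSPH1, a nucleotide exchange factor for HSP70, had a log2 fold change of −1.78 and BAG2, a co-chaperone, one of −1.28. Of the CCT chaperonin, which folds actin and tubulin, CCT2, CCT3, CCT5, CCT6A and TCP1 fell, with log2 fold changes between −1.09 and −1.0. HSPA1A (log2 fold change −1.40) shares nearly its whole sequence with HSPA1B, and its value is uncertain. The list held 18 lower calls with DESeq2 and 16 with upper-quartile scaling.

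Heat shock genes are switched on by HSF1, which binds repeats of GAA in opposite orientation. In the RefSeq promoters of GRCh38.p14, from 250 bases before to 50 bases after the start site, GAANNTTC or TTCNNGAA (each its own reverse complement) occurred in 7 of the 16 chaperone genes that fell and had a promoter in the table, in 4 of the 15 other members, and in 10.2% of the promoters of tested genes. This motif was added after the counts of the list were known. The windows of 30 bases below show it, in capitals, in members whose fall is given above, read along the strand of the gene.
HSPA8 (chr11:123062168-123062197, minus strand): ggccccttctgGAAGGTTCtaagatagggt
DNAJA1 (chr9:33025265-33025294, plus strand): cgcgccgggcgGAACTTTCcagaacgctcg
CHORDC1 (chr11:90223054-90223083, minus strand): caacggatcgtTTCCGGAAgccggtagccg
BAG2 (chr6:57172191-57172220, plus strand): tcgaccgatagGAACCTTCgcgtgggggga
The match began 50 bases before the start site in HSPA8, 23 before in CHORDC1 and 124 before in BAG2, and 3 bases after it in DNAJA1. A match is a stretch of letters and not a measured binding site.

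Of 55 ribosome biogenesis factors tested, 22 fell (40%, against 3.48% of all tested genes) and none rose. The median log2 fold change was −0.83, and 50 were lower in both pairs. UTP20, a component of the small-subunit processome, was 39.4 and 20.7 CPM with rapamycin against 118 and 94.6 CPM in control cells (log2 fold change −1.89, SE 0.28, adjusted p = 0.000278). NCL, nucleolin, the most abundant member that fell, was 1130.3 and 622 CPM against 1839.7 and 1947 CPM (log2 fold change −1.17, SE 0.28, adjusted p = 0.0122). Neither gene's groups overlapped. BYSL and RRP1, which act in the maturation of the small and the large subunit, had log2 fold changes of −1.20 and −1.03. The fall was larger in pair 2, with a list median of −1.18 against −0.50 in pair 1, and the difference between pairs was not tested. Upper-quartile scaling left 18 lower calls. The RNA polymerase subunits showed 5 lower calls of 33 and no higher call, among them POLR1C and POLR1G of polymerase I, which makes ribosomal RNA, and POLR3K of polymerase III.

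The E-box CACGTG, its own reverse complement and the site bound by MYC and its relatives, was present in the promoters of 8 of 18 ribosome biogenesis genes that fell, in 10 of 30 other members and in 9.95% of promoters of tested genes. The windows of 30 bases below carry it in capitals.
UTP20 (chr12:101280083-101280112, plus strand): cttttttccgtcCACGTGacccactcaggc
BYSL (chr6:41921515-41921544, plus strand): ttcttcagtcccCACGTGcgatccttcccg
PES1 (chr22:30591880-30591909, minus strand): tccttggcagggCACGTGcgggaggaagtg
MRTO4 (chr1:19251807-19251836, plus strand): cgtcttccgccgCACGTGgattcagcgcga
MYC itself rose, from 188 and 158 CPM in control cells to 608 and 250 CPM with rapamycin (log2 fold change 1.18, SE 0.28, adjusted p = 0.0119). It was higher in both pairs, by 1.69 and 0.66.

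The proteins of the ribosome itself were not called. None of 79 cytosolic ribosomal protein genes passed in either direction in edgeR, 4 had an unadjusted p under 0.05 and a higher level, none did so with a lower level, and DESeq2 called RPL3 higher. Their log2 fold changes ran from −0.84 to 0.65 with a median of 0.21. Their translation, which mTOR complex 1 is known to govern, was not measured by these libraries. Of 47 translation factors, 5 fell (10.6%, against 3.48% of all tested genes) and 1 rose (2.13%, against 4.59%). Their median level was 7.56 log2 CPM. Among the 3165 tested genes with the highest level, 6.07 log2 CPM or more, 7.9% fell and 3.73% rose. EIF4G2, a scaffold of cap-independent initiation, had a log2 fold change of −1.20, and EIF3B, a subunit of the initiation factor EIF3, one of −1.01 (369 and 373 CPM against 714 and 779 CPM). EIF4G1, the scaffold of the cap-binding complex, was called lower at adjusted p = 0.0467 (log2 fold change −0.84, SE 0.26), but it lost the call under 4 of the 6 other blocked settings, with adjusted p from 0.0518 to 0.0787. EIF4EBP1, the translation repressor that mTOR phosphorylates, rose from 97.5 and 90.3 CPM to 207 and 155 CPM (log2 fold change 0.93, SE 0.26, adjusted p = 0.0249), with groups that did not overlap. Upper-quartile scaling left 3 lower calls in this list. EIF4A1 held only 128 to 153 reads per library, the read-through gene SENP3-EIF4A1 covers its locus in RefSeq so that reads may not be assigned to it, and it was not called (log2 fold change 0.52, SE 0.44).

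Splicing factors, proteasome subunits and mitochondrial import factors leaned the same way. Over all tested genes 3.48% fell. By level, 4.68% fell between 4.79 and 6.07 log2 CPM, and 7.9% fell above that. The median level was 7.33 log2 CPM in the splicing list, 6.95 in the proteasome list and 5.5 in the import list. Of 76 splicing factors, 14 fell (18.4%) and none rose (median −0.48), and 63 were lower in both pairs. SRSF1, an SR protein that defines exons, was 159 and 89.1 CPM with rapamycin against 305 and 332 CPM in control cells (log2 fold change −1.42, SE 0.28, adjusted p = 0.00354). U2AF2, which binds the polypyrimidine tract before the 3′ splice site, was 247 and 119 CPM against 522 and 454 CPM (log2 fold change −1.51, SE 0.28). In each the groups did not overlap. Of 37 proteasome subunits, 4 fell (10.8%), all of them in the regulatory caps (PSMD1, PSMD3, PSMD12 and PSME3), and 34 were lower in both pairs (median −0.59). DESeq2 did not call PSMD12 (adjusted p = 0.0636). Of 34 mitochondrial import factors and chaperones, 6 fell (17.6%), and DESeq2 called 4 of the list lower. Those that fell included TOMM40, the channel of the outer membrane (163 and 88.3 CPM against 424 and 335 CPM, log2 fold change −1.65, SE 0.27), and HSPD1, the chaperonin HSP60 (log2 fold change −1.28). The 13 mitochondrially encoded genes of the respiratory chain had no call by edgeR, although 3 had an unadjusted p under 0.05 and a lower level and DESeq2 called MT-ND1 lower, and their median was −0.14. Of its 76 nuclear-encoded genes, 2 fell (2.63%, against 3.48% of all tested genes). These were CYCS, cytochrome c, and UQCRFS1, the Rieske protein of complex III, with log2 fold changes of −1.0 and −0.86. UQCRFS1 was not called with upper-quartile scaling (adjusted p = 0.0577).

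**Figure D2:**
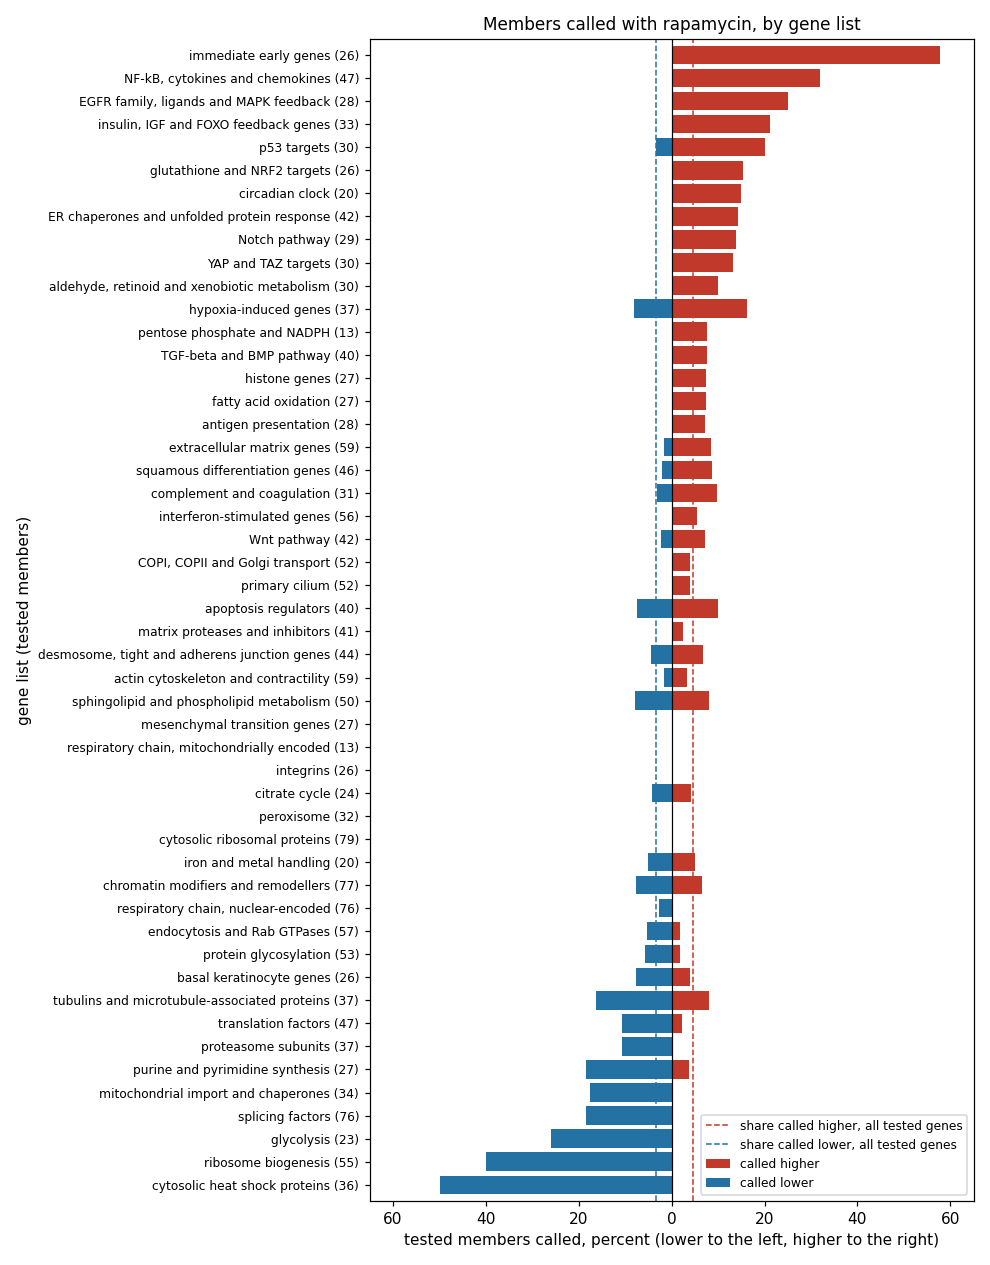
Share of the tested members of each of 50 gene lists called higher (red, to the right) or lower (blue, to the left), in percent, with the number of tested members in parentheses; the dashed lines mark the shares over all tested genes, 4.59% higher and 3.48% lower. Immediate early genes reach 57.7% higher and cytosolic heat shock proteins 50% lower.

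Of 23 genes of glycolysis, 6 fell (26.1%, against 3.48% of all tested genes) and none rose. In both pairs 16 were lower and 4 higher. LDHA, lactate dehydrogenase A, was 484 and 604 CPM with rapamycin against 1656 and 1899 CPM in control cells (log2 fold change −1.71, SE 0.27, adjusted p = 0.000485). PKM, pyruvate kinase, was 1266 and 1513 CPM against 2615 and 3243 CPM (log2 fold change −1.07, SE 0.27, adjusted p = 0.0134). PGAM1, GPI, PGK1 and TPI1 had log2 fold changes between −1.34 and −0.87. For LDHA and PKM the groups did not overlap. With upper-quartile scaling 3 of the 23 were called. In nucleotide synthesis 5 of 27 genes fell (18.5%) and 1 rose (3.7%, against 4.59% of all tested genes). ADSS1, the muscle-type adenylosuccinate synthase, was the gene that rose. Those that fell were CTPS1, CAD and UMPS of the pyrimidine pathway and the deoxynucleotide enzymes RRM2 and TYMS, with log2 fold changes from −1.27 to −0.99. With upper-quartile scaling or DESeq2, 3 of these genes were called lower. DESeq2 did not call ADSS1 (adjusted p = 0.0777).

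Genes induced by low oxygen did not move as a block. Of 37 tested, 6 rose (16.2%, against 4.59% of all tested genes) and 3 fell (8.11%, against 3.48%). The median was 0.02, with −0.14 in pair 1 and 0.17 in pair 2. DDIT4, described above, MXI1 (log2 fold change 1.71) and VEGFA, the angiogenic growth factor (log2 fold change 1.05), rose. EGLN3 and EGLN1, prolyl hydroxylases that mark HIF for destruction, fell by 1.65 and 1.22 on the log2 scale, and BNIP3, a mitophagy receptor, fell by 1.11. Its relative BNIP3L rose (log2 fold change 0.88). LDHA and PGK1, glycolytic enzymes that the same pathway is known to induce, fell as given above. In mitochondrial metabolism PCK2, the mitochondrial phosphoenolpyruvate carboxykinase, rose (211 and 152 CPM against 52.8 and 67.5 CPM, log2 fold change 1.58, SE 0.27), with groups that did not overlap.

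Immediate early genes had the largest share of higher calls among the 50 lists. These are transcription factors and regulators that growth factors and stress switch on without new protein synthesis. Of 26 tested, 15 rose (57.7%, against 4.59% of all tested genes) and none fell. The median log2 fold change was 1.28, and 24 were higher in both pairs. ATF3, a stress-induced repressor, was 65.1 and 45.0 CPM with rapamycin against 11.1 and 6.59 CPM in control cells (log2 fold change 2.66, SE 0.32, adjusted p = 1.25e-05). FOS was 18.1 and 53.6 CPM against 6.37 and 12.4 CPM (log2 fold change 1.82, SE 0.34, adjusted p = 0.00184), and its AP-1 partner JUNB was 238 and 327 CPM against 86.9 and 81.0 CPM (log2 fold change 1.73, SE 0.27, adjusted p = 0.000467). In these 3 genes both rapamycin libraries lay above both control libraries. NR4A1, an orphan nuclear receptor, FOSB, KLF4, EGR3 and ZFP36, which destabilises cytokine mRNA, also rose, with log2 fold changes between 1.30 and 2.28. EGR3 rested on 7 and 16 reads in the control libraries. CCN2, a matricellular YAP target, rose 1.23 and 1.80 in the pairs at very different levels (74.1 and 3.18 CPM against 31.5 and 0.845 CPM). CCN1 likewise was 1470.0 and 27.0 CPM against 386 and 18.1 CPM, with overlapping groups. A TATA box (TATAAA, either strand) lay in the promoters of 5 of the 11 called members with a promoter in the table, in 1 of 9 other members and in 5.82% of promoters of tested genes, and the cyclic AMP response element TGACGTCA in 0 of 11, 1 of 9 and 3.21%.

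**Figure D3:**
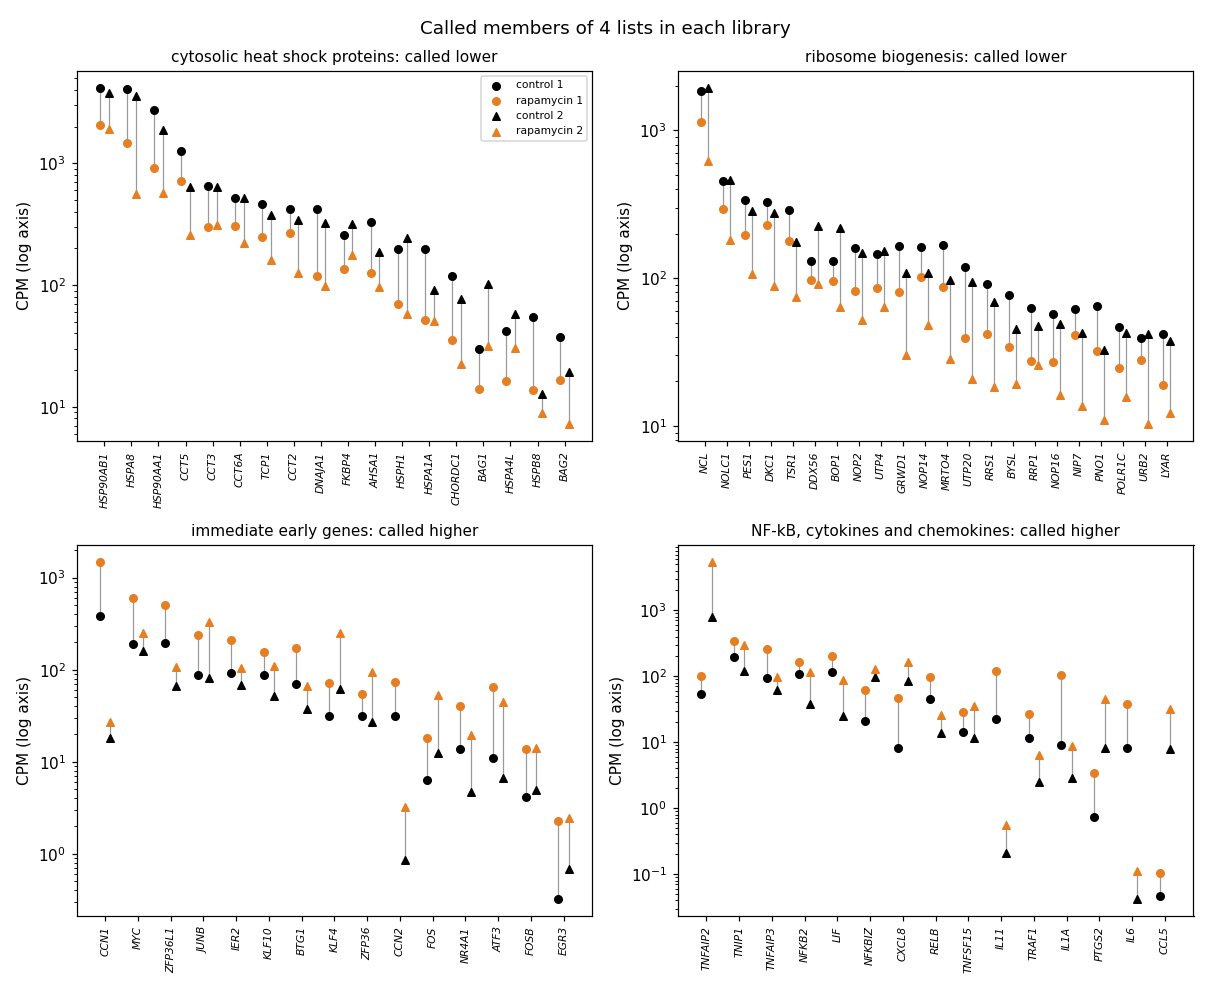
CPM on a log axis of each called member of 4 lists in control 1 and 2 (black) and rapamycin 1 and 2 (orange), circles for number 1 and triangles for number 2, each pair joined by a grey line. Lines run down in the chaperone and ribosome biogenesis panels and up in the immediate early and NF-kB panels by definition of the calls. Members not called are not shown. IL6, IL11 and CCL5 are near 0 in 1 of the numbers.

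Inflammatory genes followed with the next largest share. Of 47 NF-kB pathway, cytokine and chemokine genes, 15 rose (31.9%, against 4.59% of all tested genes) and none fell (median 0.67). IL1A, an alarmin cytokine of keratinocytes, was 103 and 8.83 CPM with rapamycin against 9.10 and 2.92 CPM in control cells (log2 fold change 2.61, SE 0.44, adjusted p = 0.00456), so that rapamycin 2 fell just under control 1. PTGS2, the inducible cyclooxygenase, was 3.42 and 44.7 CPM against 0.739 and 8.11 CPM (log2 fold change 2.36, SE 0.41, adjusted p = 0.0013), and CXCL8, the neutrophil chemokine interleukin-8, was 46.8 and 166 CPM against 8.17 and 83.9 CPM (log2 fold change 1.72, SE 0.34). In both the groups overlapped because the level differed between the numbers. TNFAIP2 reached 5349 CPM in rapamycin 2 against 788 CPM in control 2, and stood at 102 and 53.5 CPM in pair 1. Members that signal within the pathway also rose, namely the subunits RELB and NFKB2 of the non-canonical branch, the brakes TNFAIP3 and TNIP1, and TRAF1, with log2 fold changes between 1.01 and 1.27. DESeq2 did not call TRAF1 (adjusted p = 0.0909). IL6 and CCL5 were each carried by a single pair: IL6 had 2 reads in rapamycin 2 and 1 in control 2, and CCL5 had 2 in rapamycin 1 and 1 in control 1. An NF-kB site was found in the promoters of 3 of the 12 called members with a promoter (NFKBIZ, TNFAIP3 and IL6), in 11 of 26 other members and in 6.67% of promoters of tested genes. The windows of 30 bases carry it in capitals.
NFKBIZ (chr3:101827757-101827786, plus strand): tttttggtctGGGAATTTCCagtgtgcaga
TNFAIP3 (chr6:137867194-137867223, plus strand): aaagtcccgtGGAAATCCCCgggcctacaa
IL6 (chr7:22727117-22727146, plus strand): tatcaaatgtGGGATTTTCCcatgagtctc

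Some receptor signalling genes rose. Of 28 genes of the EGFR family, its ligands and MAPK feedback, 7 rose (25%, against 4.59% of all tested genes) and none fell. HBEGF, a ligand of EGFR, was 59.1 and 25.3 CPM with rapamycin against 17.7 and 10.3 CPM in control cells (log2 fold change 1.52, SE 0.32, adjusted p = 0.00452). DUSP1 and DUSP5, phosphatases that switch off MAP kinases, had log2 fold changes of 1.57 and 1.20, and ERRFI1, an inhibitor of EGFR, one of 0.89. For HBEGF the groups did not overlap, while for DUSP1 rapamycin 2 (16.3 CPM) lay under control 1 (18.1 CPM). Of 33 genes of the insulin, IGF and FOXO feedback, 7 rose (21.2%, against 4.59%) and none fell. INSR, the insulin receptor, was 38.2 and 42.8 CPM against 22.0 and 15.5 CPM (log2 fold change 1.13, SE 0.31, adjusted p = 0.0253). IRS2, its substrate, was 62.5 and 24.4 CPM against 42.3 and 6.04 CPM (log2 fold change 1.26, SE 0.35), TSC22D3 rose by 1.57 and CCNG2, a FOXO target, by 1.46. GRB10, an adaptor that restrains the insulin receptor, had a log2 fold change of 1.47, and TRIB3, a pseudokinase that binds AKT, one of 1.41. INSR and TRIB3 had groups that did not overlap.

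Stress pathways gave mixed counts. In the lists with calls in 1 direction only, 0 to 4 members had an unadjusted p under 0.05 in the other direction. Of 42 genes of the endoplasmic reticulum chaperones and unfolded protein response, 6 rose (14.3%, against 4.59% of all tested genes) and none fell. The list median was only 0.01, with −0.15 in pair 1 and 0.24 in pair 2. XBP1, the transcription factor of this response, was 239 and 232 CPM with rapamycin against 56.3 and 88.2 CPM in control cells (log2 fold change 1.74, SE 0.27, adjusted p = 0.000485), and ERN1, the sensor IRE1 that splices XBP1 mRNA, was 66.6 and 45.0 CPM against 24.8 and 13.5 CPM (log2 fold change 1.58, SE 0.30). The others were DNAJB9, HERPUD1, ERO1B and CRELD1. Of 30 p53 targets, 6 rose (20%, against 4.59% of all tested genes) and 1 fell (3.33%, against 3.48%). CDKN1A, the cell cycle inhibitor p21, was 357 and 49.8 CPM against 142 and 14.8 CPM (log2 fold change 1.54, SE 0.26, adjusted p = 0.0013), with a like rise in each pair and overlapping groups. BBC3, the pro-apoptotic protein PUMA, was 15.3 and 12.5 CPM against 3.05 and 1.86 CPM (log2 fold change 2.53, SE 0.45). AEN, a nuclease, was the member that fell, at adjusted p = 0.0489, and it was not called under 4 of the 6 other blocked settings. Of 40 apoptosis regulators, 4 rose (10%, against 4.59% of all tested genes) and 3 fell (7.5%, against 3.48%), and DESeq2 called 1 of the 4. The list median of the glutathione and NRF2 targets was −0.29 in pair 1 and 0.69 in pair 2; SLC7A11, ABCC3, an efflux pump, HMOX1, haem oxygenase, and TXNRD1, thioredoxin reductase, rose, and DESeq2 did not call HMOX1 (adjusted p = 0.0886).

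The clock and Notch lists had few called genes in number, but a share above that of all tested genes. The share called higher was 15% for the clock and 13.8% for Notch, against 4.59% of all tested genes, and none fell. The list medians were 0.80 and 0.37. With an unadjusted p under 0.05 in edgeR, 11 clock genes were higher and 2 lower, and 11 Notch genes were higher and 0 lower. Of 20 circadian clock genes, PER3, NR1D1 and TEF rose, with log2 fold changes of 1.68, 1.55 and 1.33, and 14 were higher in both pairs. DESeq2 did not call PER3 (adjusted p = 0.079) or TEF (adjusted p = 0.0551), and called 3 genes of the list in all. NR1D1, the haem receptor REV-ERBalpha that represses the clock, was 17.7 and 23.9 CPM with rapamycin against 8.54 and 5.79 CPM in control cells. Among 29 Notch genes, the ligand DLL1, the receptor NOTCH3, the target HES1 and the glycosyltransferase RFNG rose. RFNG was 57.4 and 58.4 CPM against 32.5 and 25.9 CPM (log2 fold change 1.0, SE 0.29, adjusted p = 0.0307), with no overlap, whereas DLL1 and NOTCH3 were many times higher in the libraries numbered 2, and DESeq2 left 2 of the 4 called. Of 30 YAP and TAZ targets 4 rose (13.3%), 2 of which, CCN1 and CCN2, also stood among the immediate early genes.

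Squamous and matrix genes changed one at a time. Over all tested genes 4.59% rose and 3.48% fell. Among the 3165 with the highest level, 6.07 log2 CPM or more, 3.73% rose and 7.9% fell. Of the basal keratinocyte genes 3.85% rose and 7.69% fell, at a median level of 6.62 log2 CPM. Of 26 basal keratinocyte genes, KRT5 and KRT6A fell and LAMB3, a chain of the basement membrane protein laminin-332, rose from 1329.6 and 460 CPM to 3344 and 970 CPM (log2 fold change 1.20, SE 0.27, adjusted p = 0.00677). Of 46 squamous differentiation genes, 4 rose (8.7%) and 1 fell (2.17%). PRDM1, a repressor active in terminal differentiation, was among those that rose (log2 fold change 1.83). Of 59 extracellular matrix genes 5 rose (8.47%) and 1 fell (1.69%). The gene that fell, SPARC, had 113 and 0.274 CPM against 239 and 0.845 CPM and so was nearly absent in number 2. PLAU, the urokinase that activates plasminogen, was 2673 and 597 CPM against 560 and 231 CPM (log2 fold change 1.81, SE 0.28, adjusted p = 0.000612), and its groups did not overlap. None of 26 integrins and none of 27 mesenchymal transition genes was called by edgeR; 3 integrins and 6 mesenchymal genes had an unadjusted p under 0.05, and DESeq2 called 1 mesenchymal gene lower. Of 57 endocytosis and Rab genes 3 fell (5.26%, against 3.48% of all tested genes) and 1 rose (1.75%, against 4.59%). Their median level was 6.38 log2 CPM, in the range where 7.9% of tested genes fell. CAV1 and CAVIN1, which build caveolae, and RAB27B, a GTPase of secretion, had log2 fold changes of −1.40, −1.29 and −1.38, and RAB31, an endosomal GTPase, one of 0.94; DESeq2 did not call RAB27B (adjusted p = 0.0851). TFRC, the transferrin receptor, fell, at 285 and 442 CPM against 576 and 1197 CPM (log2 fold change −1.23, SE 0.26, adjusted p = 0.00588), and SLC11A2, an iron importer, rose (log2 fold change 1.03). Of 37 tubulins and microtubule-associated proteins, 6 fell (16.2%) and 3 rose (8.11%). TUBB and TUBA1B, abundant tubulins with close paralogues, had log2 fold changes of −0.93 each, and with upper-quartile scaling 3 members were called lower.

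Of 77 chromatin modifiers and remodellers, 5 rose (6.49%, against 4.59% of all tested genes) and 6 fell (7.79%, against 3.48%). The median level of the list was 6.45 log2 CPM. Among the 3165 tested genes with the highest level, 6.07 log2 CPM or more, 7.9% fell and 3.73% rose. The demethylases KDM7A, KDM6B and KDM5B, the de novo methyltransferase DNMT3A and the deacetylase HDAC5 rose. EZH2 and EED, the catalytic and histone-binding subunits of Polycomb complex 2, the maintenance methyltransferase DNMT1, KDM1A, PBRM1 and BPTF fell, with log2 fold changes between −1.08 and −0.80, and none of these 6 was called lower with upper-quartile scaling. DNMT3A was 23.8 and 30.9 CPM with rapamycin against 5.82 and 8.41 CPM in control cells (log2 fold change 1.95, SE 0.35, adjusted p = 0.00173), whereas DNMT1 was 264 and 144 CPM against 383 and 351 CPM (log2 fold change −0.91, SE 0.27, adjusted p = 0.0342). Among 27 histone genes the linker histone H1-10 rose (log2 fold change 1.51, SE 0.28), while the list median was −0.48 in pair 1 and 0.23 in pair 2. METTL14, a subunit of the m6A methyltransferase, and FTO, an m6A demethylase, were not called, at log2 fold changes of −0.02 (SE 0.33) and 0.22 (SE 0.27).

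Gene families were also compared by the letters of their symbols before the first digit. Over all tested genes 4.59% were called higher and 3.48% lower. The families named are the extremes of many and rest on few genes each. Of 92 such families with at least 15 tested members, those with the largest share called higher were KLF (4 of 15), SMIM (5 of 22), ZFP (3 of 15), SEMA (3 of 16), KDM (3 of 19) and CFAP (3 of 21). Their median log2 fold changes ran from 0.01 for KDM and 0.09 for ZFP, each with 1 lower call, to 0.85 for KLF. KLF13, a zinc finger factor, was 108 and 23.3 CPM with rapamycin against 34.1 and 6.25 CPM in control cells (log2 fold change 1.77, SE 0.29), and SEMA7A, a membrane semaphorin, was 317 and 3.84 CPM against 97.2 and 0.803 CPM. The largest shares called lower were in KIF (6 of 29), PSMD (3 of 15), DHX (3 of 16), POLR (5 of 33), CDC (5 of 35) and TIMM (2 of 16). In KIF the members that fell, KIF4A, KIF11, KIF18B, KIF20A, KIF20B and KIF23, are kinesins of mitosis and cytokinesis, and those that rose, KIF13B and KIF21B, are transport kinesins. KIF18B, which shortens spindle microtubules, was 66.6 and 44.4 CPM against 139 and 117 CPM (log2 fold change −1.23, SE 0.26, adjusted p = 0.00525).

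Level, gene class, span and promoter GC content were also compared between the genes that fell and those that rose. The calls depend on level, through the filter on low counts and the fit itself, whereas the other features did not enter the fit. The median level of the genes that fell was 5.85 log2 CPM, against 3.72 for the genes that rose and 4.09 over all tested genes, and among the 3165 genes with the highest level 7.9% fell and 3.73% rose, against 0.6% and 3.54% among the 3166 with the lowest. The level moves with the direction of the calls, and its part in the split and in the other features was not tested. Of the genes that fell, 94.9% were protein coding, against 83.1% of those that rose and 81.5% of all. Among the 2936 genes with the longest span, 87 kb or more, 1.94% fell and 4.22% rose, whereas 4.84% and 4.94% did so among the 2936 genes of middle span. The median GC content of the promoter was 63.7% for genes that fell, 68.7% for genes that rose and 65.3% for all tested genes.

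Promoters of the genes that rose held ETS, NRF1 and YY1 sites less often than those of tested genes as a whole, with no test. An ETS site (CCGGAAG) lay in 8.95% of the 503 promoters of genes that rose, in 19.6% of the 433 of genes that fell and in 18.6% of the 11401 of tested genes, against 10.7% of all 27305 promoters of the table. The NRF1 site was found in 6.96%, 16.6%, 11.2% and 6.28% in the same order, and the YY1 site (AAGATGGC) in 1.79%, 7.16%, 5.17% and 3.03%. The NF-kB site went the other way, in 8.15% of genes that rose, 3.93% of genes that fell and 6.67% of tested genes. The CCAAT box was in 36%, 44.6% and 36.5%. Either strand was counted for each motif, and the motifs may overlap.

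The m6A peaks gave a readout from other libraries of the study. In control cells, genes that fell carried at least 1 listed peak more often than the tested genes as a whole, 28.7% against 17.6% in HSC3 and 26.7% against 16.1% in CAL33, and genes that rose did so in 17.9% and 13.6%. In rapamycin cells the share was 24.5% in HSC3 and 16.9% in CAL33 for genes that fell, and 22.6% and 17.9% for genes that rose. Over all tested genes it was 17.5% and 14.2%. The genes that fell were the more abundant ones, as given above. Among the 5276 genes of middle level, the control shares were 28.5% in HSC3 and 23.6% in CAL33 for genes that fell. They were 16.3% and 8.5% for genes that rose, and 18.3% and 17.1% for all. At the lowest level they were 16.7% and 7.14% for the 42 genes that fell. There they were 7.2% and 2.97% for genes that rose, and 6.29% and 3.73% for all. Among the 5275 genes with the highest level, the control shares were 30.3% and 30.6% for genes that fell, 33% and 34% for genes that rose, and 28.1% and 27.5% for all. In the same 5275 genes with rapamycin, genes that rose had a peak in 38.6% in HSC3 and 33% in CAL33, and genes that fell in 27.4% and 19%, against 27.5% and 23.2% for all. From control to rapamycin cells, the share for genes that fell was lower in both lines, at all levels together and at the highest level. For genes that rose it was higher in HSC3 in both settings, and in CAL33 it was higher at all levels together and slightly lower at the highest level. Over all tested genes the CAL33 share was also lower with rapamycin, 14.2% against 16.1%, and 23.2% against 27.5% at the highest level. In HSC3 it was 17.5% against 17.6%, and 27.5% against 28.1% at the highest level. The level of the mRNA differs between the treatments for these very genes, its part in the shares was not tested, and no test of treatment across the lines was run on the peak lists.

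**Figure D4:**
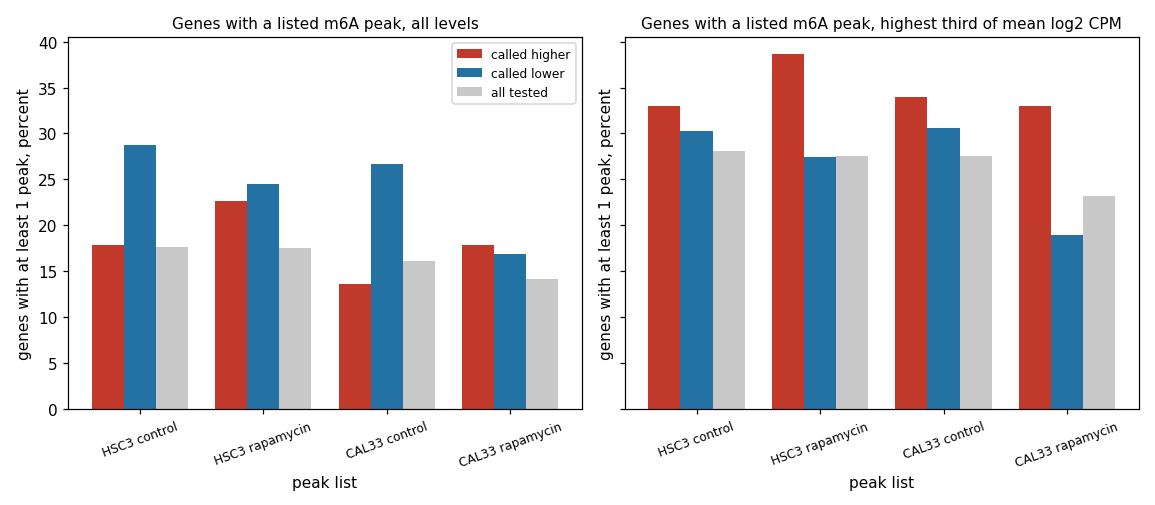
Percent of genes with at least 1 listed m6A peak in each of the 4 peak lists, for genes called higher (red), called lower (blue) and all tested genes (grey), over all levels (left) and among the 5275 genes with the highest mean log2 CPM (right). At the highest level the blue bars are 30.3% and 30.6% in the control lists and 27.4% and 19% in the rapamycin lists.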

How the data were processed

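RNA-seq counts of 2 rapamycin and 2 control libraries were used. The authors deposited whole-number read counts per gene, not normalized. The peak lists the authors deposited give a fold enrichment (a ratio to input) and a false discovery rate score; only the presence of peaks was used. The submitters' processing notes name cutadapt 2.5, HISAT2 2.1.0, featureCounts 1.6.3, HOMER 4.10.4 and build hg38, without saying which step each served. The study gives 3 days of rapamycin for the m6A libraries and does not say so of the RNA-seq libraries.

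Symbols were found for 57532 of 58302 gene identifiers (98.68%). Counts were filtered (filterByExpr), scaled by TMM and fitted in edgeR 4.0.16 (R 4.3.3) by the quasi-likelihood test, robust, with treatment and pair as terms, and p-values were adjusted over all 15826 tested genes (Benjamini-Hochberg). Pair differences are of log2 CPM with a prior count of 2. Log2 CPM correlated at r = 0.97 and 0.957 within the pairs and at 0.81 to 0.856 across them, and the number comes from the titles. The depth, 18492273 to 23763098 counts, limits the precision of genes with few reads.

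The genes named are the 12 in each direction with the largest smaller pair difference (mean log2 CPM of at least 3, no clone-style symbol), up to 3 called members per list and direction by the same measure, and METTL14, FTO, EIF4G1 and EIF4A1; other members named beside them were chosen after their values were seen. A few genes that the rule gives are not reported here. The rule, the 50 lists and the motifs were chosen with earlier results of these data known. Alternatives were no block, other scalings and filters, a fit that is not robust, DESeq2 1.42.0, a 2-fold limit, and stricter peak limits. Promoter sequences are RefSeq's for GRCh38.p14.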

Additional observations from a re-analysis of the deposited data

Results flagged for a closer look

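In 7 of the 50 lists the median log2 difference (rapamycin minus control) had opposite signs in the pairs, with a size of at least 0.1 in each. The difference between the pairs was not tested, because each pair is a single library against a single library. Pair 1 was below 0 and pair 2 above 0 in all 7. The glutathione and NRF2 targets had medians of −0.29 and 0.69, a gap of 0.977, and the interferon-stimulated genes −0.18 and 0.67, a gap of 0.856. The histone genes stood at −0.48 and 0.23 (gap 0.718), the antigen presentation genes at −0.15 and 0.55 (gap 0.701), and the pentose phosphate and NADPH genes at −0.27 and 0.41 (gap 0.679). For the endoplasmic reticulum chaperones and unfolded protein response the gap was 0.387 and for the hypoxia-induced genes 0.309. Over all tested genes the medians were 0.00 and 0.03.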

How the results depend on the processing

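The count of genes called was 1277, with 727 higher and 550 lower. Without the replicate block it was 0, and all 24 leading genes lost their call while keeping their direction. DESeq2 with the block called 830 genes, 418 of them higher. Upper-quartile scaling called 358 lower, and the median of all genes was 0.13 against 0.05. The other settings (relative log expression size factors, genes with low counts kept, a minimum of 10 in each library, a fit that is not robust, and a 2-fold limit) kept each count within 1.5 times. No call of any blocked setting was opposite to a main call. The 24 leading genes were called under every blocked setting in which they were tested. Of the 162 genes that the naming rule gives, those that lost their call numbered 31 with DESeq2, 11 with upper-quartile scaling, 4 with relative log expression size factors, 4 with the minimum of 10, 3 in the fit that is not robust and 1 without a filter. With either pair left out, the difference of the remaining pair is a value with no test, since no residual degree of freedom is left with the block; called genes have the same sign in both pairs by definition. IL6 and CCL5 had 1 or 2 reads in each library of 1 of the numbers.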
